A study of Arabidopsis thaliana with 30 samples.

Results

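The genes described here are 10 glutathione transferases of the phi class of Arabidopsis thaliana: GSTF2, GSTF3, GSTF6, GSTF7, GSTF8, GSTF9, GSTF10, GSTF11, GSTF12 and GSTF14. They were chosen by their gene identifiers and read from 5 tables, each of which compares antimycin A with mock treatment in 1 plant line. The tables together list 6297 genes, of which 6 are members, and the same 6 members are among the 1125 genes listed in all 5 tables. The other 4 members are listed in no table. Because each table is restricted to genes called changed by the authors, an unlisted member did not meet the thresholds or was not measured, and cannot be called unchanged.

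RNA was sequenced from whole seedlings of 5 lines, aged 10 days: Col-0 wild type (WT), 3 mutants (snrk1a, jmj15 and crf6), which the sample titles name by the alleles snrk1a-2, jmj15-2 and crf6-2, and SnRK1aOX, which overexpresses SnRK1a. SnRK1a is a catalytic subunit of the energy-sensing kinase SnRK1. JMJ15 belongs to the jumonji histone demethylases, and CRF6 to the cytokinin response factors. Seedlings grown on vertical plates with sucrose were kept in wells of liquid medium for 5 h with 50 µM antimycin A, which blocks complex III of mitochondrial respiration, or with a mock treatment. Every group held 3 libraries, 30 in all. Each mutant was represented by 1 allele, and the promoter and the number of independent transformants behind SnRK1aOX are not given in the labels used here, nor is the sense in which each mutant allele changes its gene. SnRK1a (KIN10), JMJ15 and CRF6 themselves are listed in no table, so the genotype labels could not be checked against expression.

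Glutathione transferases join the tripeptide glutathione to reactive or toxic compounds, and the conjugates are carried into the vacuole or broken down further. Several genes of the phi class are known to be induced within hours by salicylic acid, hydrogen peroxide, ethylene or wounding. Some members also serve defined pathways: GSTF6 conjugates an intermediate of the phytoalexin camalexin, GSTF11 acts in aliphatic glucosinolate synthesis, and GSTF12 (TT19) carries anthocyanins and proanthocyanidin precursors.

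In the RefSeq annotation of TAIR10.1, GSTF7 (AT1G02920, chr1:658578-659980) and GSTF6 (AT1G02930, chr1:661088-662475) lie in tandem on the minus strand, 1107 bases apart, and are followed by GSTF5 and GSTF4. GSTF8 (AT2G47730, chr2:19556326-19559485) and GSTF3 (AT2G02930, chr2:851156-852321) lie on chromosome 2, as do the unlisted tandem neighbours GSTF9 and GSTF10, 897 bases apart. GSTF2 (AT4G02520) is at chr4:1110343-1112033 and GSTF14 (AT1G49860) at chr1:18458526-18459969. The files give gene identifiers without coordinates, so positions come from the annotation. The phi genes GSTF4, GSTF5 and GSTF13, which are not among the members, are listed in no table either.

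The 300 bases before the annotated gene start are shown for GSTF7 and GSTF8, which rose, and for GSTF14, the member that moved in the opposite direction. Sequences run 5′ to 3′ on the gene's strand, from the TAIR10.1 genome. Capitals mark TTGAC, the core of the W-box bound by WRKY factors, and TGACG, the core of the as-1 and ocs elements bound by TGA factors, on either strand.
GSTF7 (chr1:659981-660280, minus strand): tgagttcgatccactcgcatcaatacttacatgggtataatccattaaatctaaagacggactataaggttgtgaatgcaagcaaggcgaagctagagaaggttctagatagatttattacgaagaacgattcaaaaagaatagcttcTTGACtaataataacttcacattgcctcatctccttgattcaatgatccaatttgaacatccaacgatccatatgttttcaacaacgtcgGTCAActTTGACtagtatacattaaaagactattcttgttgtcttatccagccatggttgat
GSTF8 (chr2:19556026-19556325, plus strand): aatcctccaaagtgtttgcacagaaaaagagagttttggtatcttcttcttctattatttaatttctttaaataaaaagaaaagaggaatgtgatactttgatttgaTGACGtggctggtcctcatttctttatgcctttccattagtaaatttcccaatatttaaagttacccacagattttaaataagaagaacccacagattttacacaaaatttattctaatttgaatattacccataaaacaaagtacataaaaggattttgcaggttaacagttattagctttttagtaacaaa
GSTF14 (chr1:18458226-18458525, plus strand): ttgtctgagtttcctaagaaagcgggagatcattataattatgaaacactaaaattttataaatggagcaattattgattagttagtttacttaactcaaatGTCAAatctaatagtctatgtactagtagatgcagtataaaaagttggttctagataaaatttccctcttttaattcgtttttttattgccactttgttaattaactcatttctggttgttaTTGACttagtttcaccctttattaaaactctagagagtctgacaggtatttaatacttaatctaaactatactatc
Of the 9 members whose windows were searched, TTGAC was present in 4 of the 5 listed and in 2 of the 4 unlisted ones, and 50.4% of 27443 windows of the same length before annotated genes hold it. GSTF7 holds 3 matches and GSTF14 holds 2, and 5.07% of all windows hold at least 3 and 17.9% at least 2. TGACG was present in GSTF3 and GSTF8, and among the unlisted members in GSTF10 and GSTF12, against 21.3% of all windows. The G-box CACGTG was found in 0 of the 9 (7.09% of all windows). The heat shock element core GAANNTTC was found in GSTF7, GSTF10 and GSTF12 (11.5% of all windows), and the mitochondrial dysfunction motif in 0 as well (1.37% of all windows). The motifs were searched on both strands, no TTGAC match overlapped a TGACG match in these members, and a match says only that the letters are present. GSTF8 has a further annotated transcript that begins inside the gene, so the window shown is that of its outermost start.

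The values are read counts that the authors normalised, and depth per library is unknown. Whether they were normalised within each table or across tables is not given. Values are therefore compared within a table, and changes are differences of log2(normalised count + 1) between antimycin A and mock, with the standard error (SE) of a limma refit and n = 3 libraries a group. The labels do not say whether the 3 libraries are separate cultures, and the p-values therefore reflect the spread among these libraries, which may be technical. In whole seedlings, fewer cells of a type and less RNA per cell cannot be told apart.

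In all 5 lines GSTF2, GSTF3, GSTF6, GSTF7 and GSTF8 were called higher after antimycin A and GSTF14 was called lower. The authors' deposited tables called 5.83% of the implied tested genes higher and 8.84% lower in WT. For snrk1a the shares were 7.17% and 10.1%, for jmj15 6.62% and 6.04%, for crf6 6.97% and 7.71%, and for SnRK1aOX 5.55% and 3.67%. The limma refit of every line also gave the 6 listed members an adjusted p below 0.05, where 76.2% of the listed genes passed in WT. The shares of listed genes passing were 82.4% for snrk1a, 72.8% for jmj15, 72.7% for crf6 and 66.9% for SnRK1aOX. Since listing selects genes that differ, the refit of listed members describes them and adds no evidence of its own. For each of the 6 members, treated and mock libraries did not overlap in any line, which was also so for most listed genes. Of the genes listed as higher, 96.7% did not overlap in WT, 96.4% in SnRK1aOX, 95.8% in crf6, 97.8% in jmj15 and 95.7% in snrk1a. Of those listed as lower the shares were 93.9% for WT, 96.8% for snrk1a, 93.4% for jmj15, 90.5% for crf6 and 93.1% for SnRK1aOX. The median log2 change of the 5 higher members was 1.47 in WT, beside 1.51 over all genes listed as higher, and 1.82 beside 1.54 in snrk1a. It was 1.52 beside 1.70 in jmj15, 1.70 beside 1.50 in crf6 and 1.45 beside 1.57 in SnRK1aOX. The higher members thus moved about as far as the typical listed gene, whereas the fall of GSTF14 exceeded that of 99.1% of the lower genes in WT, 98.5% in snrk1a, 98.3% in crf6, 91.6% in jmj15 and 84.4% in SnRK1aOX.

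**Figure D1:**
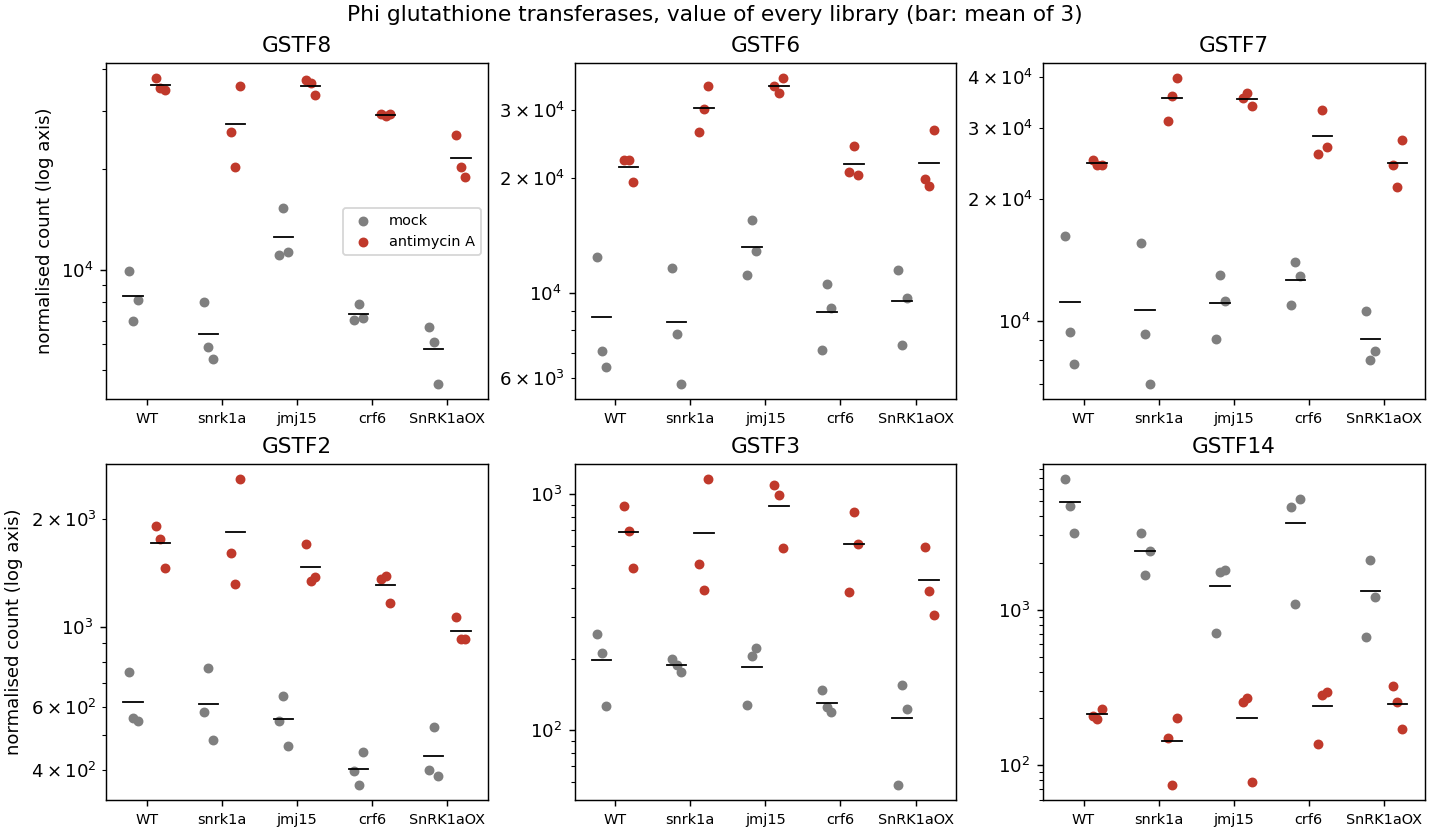
Normalised count of the 6 listed members in every library (log axis), by line, with mock in grey, antimycin A in red and a bar at the mean of 3 libraries. For GSTF8, GSTF6, GSTF7, GSTF2 and GSTF3 all treated libraries of a line lie above its mock libraries, and for GSTF14 all lie below.

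GSTF8, a stress-induced transferase whose promoter is a common reporter of early oxidative and salicylic acid responses, rose 4.28-fold in WT. Its normalised counts in the mock WT libraries were 9923, 6995 and 8089, and 37454, 35038 and 34548 with antimycin A. In snrk1a the mock libraries held 7987, 5866 and 5403 and the treated ones 25902, 20249.5 and 35599. The lowest treated library was above the highest mock library in both lines, with a wider spread in treated snrk1a than in treated WT. In jmj15 GSTF8 counted 11084, 15251 and 11266 in mock and 36966, 36235 and 33427 with antimycin A. The treated level thus resembled WT, while the mock libraries were above those of every other table, which may have been normalised separately. In crf6 it counted 7049.6, 7905 and 7147 in mock and 29239, 28912 and 29203 with antimycin A. SnRK1aOX gave GSTF8 counts of 6719.6, 6066 and 4537 in mock and 25335, 20329 and 19011 in treated libraries. The levels of the 3 treated crf6 libraries were nearly equal. The log2 change of GSTF8 was 2.11 ± 0.16 (SE) in WT (adjusted p = 0.000151, limma) and 2.07 ± 0.24 in snrk1a, and jmj15 gave 1.52 ± 0.15, crf6 1.98 ± 0.11 and SnRK1aOX 1.91 ± 0.21. The adjusted p of GSTF8 was at most 0.00342 over the 5 lines.

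GSTF6, the camalexin-related member, and its tandem neighbour GSTF7, a gene known to be induced by pathogens and salicylic acid, rose together in every line. GSTF6 counted 12437, 7073 and 6436 in mock WT and 22216, 22260.4 and 19493 with antimycin A. GSTF7 counted 16170.5, 9394 and 7835 in mock WT and 24948, 24201 and 24258 with antimycin A. In both genes mock replicate 1 of WT was the highest of its group, and the treated libraries lay close together. For snrk1a, GSTF6 was at 11628, 7833 and 5799 in mock and 26345, 30203 and 34649 in treated libraries. For GSTF7 the snrk1a values were 15543, 9313 and 6989 in mock and 31077, 35966 and 39675 in treated libraries. Here too both genes were highest in mock replicate 1, and their order among the 3 mock libraries was the same. The jmj15 libraries held 11175, 15489 and 12925 GSTF6 counts in mock and 34658, 33323 and 36315 with antimycin A. They held 9005, 12980.2 and 11189 GSTF7 counts in mock and 35389.7, 36581 and 33910.0 with antimycin A. In mock jmj15, unlike mock WT, GSTF7 was below GSTF6 in every library.

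In crf6 GSTF6 was at 7116, 10574 and 9159 in mock and 20682, 24211 and 20357 in treated libraries. GSTF7 in crf6 was at 10971, 14001 and 12898 in mock and 25877, 33082 and 26861 in treated libraries. GSTF7 was above GSTF6 in all 6 crf6 libraries. In SnRK1aOX GSTF6 was at 11528, 7341 and 9726 in mock and 19900.2, 19049.6 and 26659 in treated libraries, and GSTF7 was at 10571, 8018 and 8444 in mock and 24248, 21365 and 27922 in treated libraries. No treated library reached down to the mock libraries of its line for either gene. The log2 change of GSTF6 was 1.36 ± 0.24 (SE) in WT and 1.90 ± 0.25 in snrk1a, and jmj15 gave 1.41 ± 0.14, crf6 1.30 ± 0.16 and SnRK1aOX 1.21 ± 0.23. That of GSTF7 was 1.21 ± 0.25, 1.82 ± 0.28, 1.69 ± 0.15, 1.18 ± 0.15 and 1.45 ± 0.19 in the same order. In WT the adjusted p of GSTF7 was 0.0107 (limma), and it lay between 0.0525 and 0.0788 when treated replicate 1, 2 or 3 or mock replicate 2 was left out, and was 0.0555 without the variance trend.

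GSTF6 and GSTF7 are close copies, so their separate values are uncertain where reads fit both. Their coding sequences are 94.7% identical, and 9.41% of the windows of 50 bases in the GSTF6 transcript are also in that of GSTF7 (9.19% in the other direction), whereas GSTF6 and GSTF8 share none. Which reads the authors' counting gave to which copy is not given in the sources used here. With GSTF6 and GSTF7 summed, and GSTF2 and GSTF3 summed, the 4 resulting values passed in every line. Across the 30 libraries the deviations of GSTF6 and GSTF7 from their group means had a Pearson correlation of 0.945, beside 0.509 for GSTF6 and GSTF8. These points share library, normalisation and possibly reads.

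**Figure D2:**
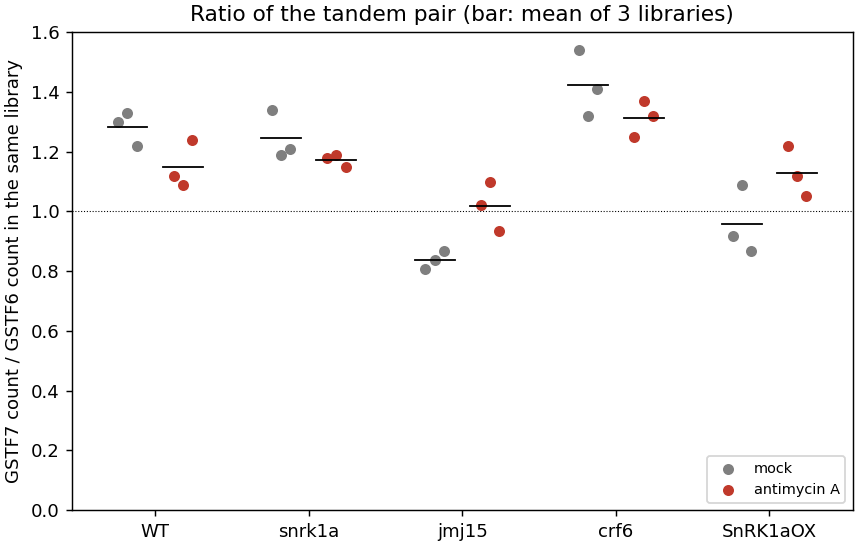
Ratio of the GSTF7 to the GSTF6 normalised count within each library, by line, with mock in grey, antimycin A in red and a bar at the mean of 3 libraries; the dotted line marks equal counts. Mock jmj15 libraries lie between 0.806 and 0.866, below the mock libraries of WT, snrk1a and crf6.

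The ratio of GSTF7 to GSTF6 within a library does not depend on the scaling of libraries or tables. In mock libraries it was 1.22 to 1.33 in WT, 1.19 to 1.34 in snrk1a, 1.32 to 1.54 in crf6, 0.806 to 0.866 in jmj15 and 0.868 to 1.09 in SnRK1aOX. With antimycin A it was 1.09 to 1.24 in WT, 1.15 to 1.19 in snrk1a, 1.25 to 1.37 in crf6, 0.934 to 1.1 in jmj15 and 1.05 to 1.22 in SnRK1aOX. In jmj15 the treated libraries were all above the mock ones, and in the other lines treated and mock ratios overlapped. The ratio was chosen after the values were seen and was not tested.

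GSTF2, which binds small heterocyclic molecules such as camalexin, and its close copy GSTF3 were less abundant and rose in every line. GSTF2 counted 748, 558 and 548 in mock WT and 1909, 1761 and 1457 with antimycin A. For GSTF3 the mock WT values were 255, 211 and 126 and the treated values 886, 694 and 484. Mock replicate 1 and treated replicate 1 were the highest of their groups for both genes. The snrk1a libraries gave GSTF2 counts of 579, 767 and 484 in mock and 1608, 1314 and 2586 when treated, and GSTF3 counts of 199, 188 and 175 and 505, 393 and 1155. Treated replicate 3 of snrk1a was far above the other two treated libraries for GSTF3. The jmj15 libraries gave GSTF2 counts of 548, 644 and 466 in mock and 1700.4, 1340.5 and 1374 when treated, and GSTF3 counts of 127, 205 and 222 and 1086, 984 and 591. The crf6 libraries gave GSTF2 counts of 396, 364 and 448 in mock and 1363, 1388 and 1168 when treated, and GSTF3 counts of 147, 125 and 119 and 384, 838 and 614. The SnRK1aOX libraries gave GSTF2 counts of 398, 526 and 383 in mock and 1065, 928 and 928 when treated, and GSTF3 counts of 58.6, 154 and 123 and 596, 386 and 306. In all lines the treated libraries were above the mock ones for both genes, with GSTF3 below GSTF2 in every library.

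The log2 change of GSTF2 was 1.47 ± 0.18 (SE) in WT and 1.55 ± 0.27 in snrk1a, and jmj15 gave 1.41 ± 0.17, crf6 1.70 ± 0.16 and SnRK1aOX 1.17 ± 0.19. That of GSTF3 was larger in each line, at 1.81 ± 0.31, 1.70 ± 0.36, 2.25 ± 0.30, 2.16 ± 0.30 and 1.98 ± 0.41 in the same order. Whether the changes of GSTF2 and GSTF3 differ was not tested. In snrk1a the adjusted p of GSTF3 was 0.00877 (limma), and 0.0553 without mock replicate 3. The coding sequences of GSTF2 and GSTF3 are 94.5% identical. Of the windows of 50 bases in the GSTF2 transcript, 2.46% are also in that of GSTF3 (3.51% in the other direction). How reads that fit both were split is uncertain. The ratio of GSTF3 to GSTF2 within a library ran from 0.147 to 0.477 in mock and from 0.282 to 0.734 in treated libraries, with no overlap between treated and mock in SnRK1aOX.

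**Figure D3:**
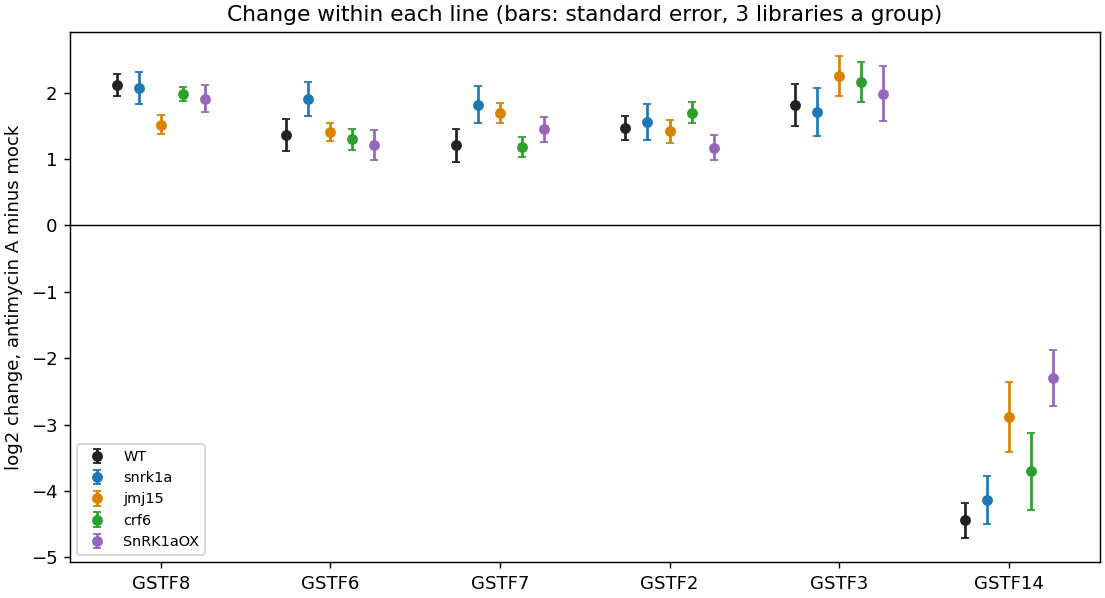
Log2 change between antimycin A and mock for the 6 listed members, 1 point a line, with bars of 1 standard error from limma (n = 3 libraries a group). GSTF8, GSTF6, GSTF7, GSTF2 and GSTF3 lie between 1.17 and 2.25, and GSTF14 between -4.44 in WT and -2.30 in SnRK1aOX.

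GSTF14 fell in all 5 lines, by 23.0-fold in WT, 16.8-fold in snrk1a, 15.1-fold in crf6, 7.03-fold in jmj15 and 5.32-fold in SnRK1aOX, as ratios of group means. Its normalised counts in mock WT were 6924, 4674 and 3093, and 208, 199 and 231 with antimycin A. In snrk1a they were 3108, 1678 and 2394 in mock and 149, 75.1 and 203 with antimycin A. The jmj15 counts of GSTF14 were 712, 1738 and 1789 in mock and 256, 269.6 and 77.7 with antimycin A. Mock replicate 1 and treated replicate 3 of jmj15 were low for their groups. In crf6 GSTF14 counted 4598, 1087 and 5156 in mock, where replicate 2 stood apart, and 138, 281 and 298 with antimycin A. SnRK1aOX held 669, 2101 and 1209 GSTF14 counts in mock and 323, 255 and 170.3 with antimycin A. The treated levels lay closer together across the tables than the mock levels. The group means of GSTF14 spanned 3.69-fold over the mock groups, from 1326 ± 724 (SD, n = 3) in SnRK1aOX to 4897 ± 1925 in WT, and 1.75-fold over the treated groups. Levels set across tables, which may have been normalised separately, are a description.

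The log2 change of GSTF14 was -4.44 ± 0.26 (SE) in WT (adjusted p = 7.59e-05, limma), -4.13 ± 0.36 in snrk1a (0.000194), -3.70 ± 0.58 in crf6 (0.00345), -2.89 ± 0.53 in jmj15 (0.0081) and -2.30 ± 0.43 in SnRK1aOX (0.018). Without mock replicate 2, the GSTF14 change in crf6 was -4.42, and without treated replicate 3 that in jmj15 was -2.31. In SnRK1aOX the adjusted p of GSTF14 was 0.108 without treated replicate 2, 0.0792 without treated replicate 3 and 0.0745 without mock replicate 3.

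Markers of root cell types were also called lower by the authors. Of 8 markers of root hairs and endodermis, 6 were listed as lower in WT, 8 in snrk1a, 6 in crf6, 5 in jmj15 and 4 in SnRK1aOX, and 0 as higher. In the limma refit 5 of these passed in WT, 8 in snrk1a, 6 in crf6, 2 in jmj15 and 0 in SnRK1aOX, where their adjusted p was between 0.0865 and 0.297. Among all implied tested genes 8.84% were called lower in WT, 10.1% in snrk1a, 7.71% in crf6, 6.04% in jmj15 and 3.67% in SnRK1aOX. For the 3 markers listed in all tables, the Casparian strip genes CASP1 and CASP4 and the peroxidase PER64, the summed count was 949.6 to 1569.8 in mock and 343 to 384 in treated WT libraries. It was 992 to 1478 and 117 to 234 in snrk1a, 468 to 992 and 122 to 243 in jmj15, 1097 to 1588 and 289 to 364 in crf6, and 390.5 to 1228 and 172 to 425 in SnRK1aOX. Mock sums were thus lowest in jmj15 and SnRK1aOX on average, the lines where mock GSTF14 was lowest as well. The ratio of GSTF14 to this sum within a library was 1.97 to 4.92 in mock and 0.57 to 0.607 in treated WT, 1.69 to 2.18 and 0.321 to 1.36 in snrk1a, and 1.31 to 3.82 and 0.636 to 1.11 in jmj15. It was 0.991 to 3.78 and 0.441 to 0.973 in crf6 and 1.29 to 1.71 and 0.761 to 1.48 in SnRK1aOX. GSTF14 fell further than this sum, which holds no root hair marker, in WT, snrk1a, jmj15 and crf6. In these lines treated and mock ratios did not overlap, narrowly in crf6. The ratios overlapped in SnRK1aOX. CASP1 had the highest mean counts of the 3. Singly, PER64 had a log2 change of -3.17 in jmj15, beside -2.89 for GSTF14, -1.69 for CASP4 and -1.27 for CASP1. In SnRK1aOX the values were -2.45, -2.30, -2.42 and -1.30 in the same order. In WT, snrk1a and crf6 each of the 3 fell less than GSTF14. CASP5, outside the sum, was at -4.18 in snrk1a, beside -4.13 for GSTF14, with a treated mean count of 2.38. The root hair marker COBL9, also outside it, was at -2.62 in WT, -2.66 in snrk1a and -2.84 in crf6. COBL9 was not listed in jmj15 or SnRK1aOX. Deviations of GSTF14 from its group means correlated with those of the marker sum at 0.474 over 30 libraries, which share normalisation, and with those of the other members at 0.714 for GSTF3, 0.38 for GSTF2, 0.317 for GSTF8, 0.175 for GSTF7 and -0.047 for GSTF6. Of 7 leaf mesophyll markers 0 were listed in WT, snrk1a, jmj15 and crf6, and LHCB2.1 was listed as higher in SnRK1aOX. In that line 5.55% of all implied tested genes were called higher. The part of the root markers in the fall of GSTF14 was not tested.

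**Figure D4:**
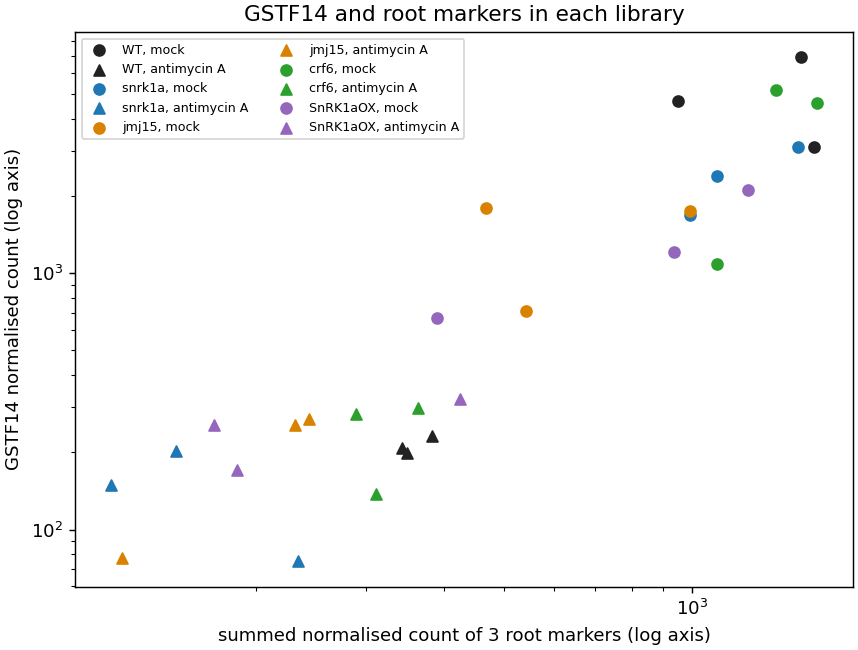
GSTF14 normalised count against the summed normalised count of CASP1, CASP4 and PER64 in each of 30 libraries (both axes log), coloured by line, with circles for mock and triangles for antimycin A. Treated libraries lie at the lower left and mock libraries at the upper right. On the GSTF14 axis every mock library of SnRK1aOX and jmj15 lies below the mock WT libraries and above all treated libraries, while on the marker axis mock SnRK1aOX replicate 1 lies below treated SnRK1aOX replicate 1.

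None of the 6 members passed an adjusted p of 0.05 for a different response from WT in any line. By limma 0% of 2440 genes passed in snrk1a (184 at an unadjusted p under 0.05), 2.24% of 2057 in jmj15 (293 at that level), 0% of 2440 in crf6 (110 at an unadjusted p under 0.05) and 0.131% of 1530 in SnRK1aOX (148 at that level). At an unadjusted p under 0.05 there were 0 members in snrk1a and crf6, 2 in jmj15 and 1 in SnRK1aOX, where 14.2% and 9.67% of all genes in the comparison were under it. GSTF14 fell less in SnRK1aOX than in WT by 2.14 ± 0.55 (95% confidence interval 0.94 to 3.34) on the log2 scale (unadjusted p = 0.00209, adjusted p = 0.145). In jmj15 the difference from WT was 1.55 ± 0.66 (95% confidence interval 0.14 to 2.97) (unadjusted p = 0.0340, adjusted p = 0.281), and without treated replicate 3 of jmj15 it was 2.14 with an adjusted p of 0.0464, the lowest over all alternatives, which reached up to 0.591. The rise of GSTF8 in jmj15 differed from that in WT by -0.59 ± 0.23 (95% confidence interval -1.09 to -0.10) (unadjusted p = 0.0218, adjusted p = 0.222). All of these miss the threshold after adjustment over the genes called changed in both lines, with the 1 exception that rests on leaving out a library. Genes called in only 1 of the 2 lines are not in the comparison or its shares.

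The other intervals leave room for differences of either sign. In snrk1a, GSTF6 differed from WT by 0.54 ± 0.38 (95% confidence interval -0.28 to 1.36) and GSTF7 by 0.61 ± 0.41 (95% confidence interval -0.26 to 1.49). GSTF14 differed by 0.31 ± 0.50 (95% confidence interval -0.75 to 1.38) in snrk1a and by 0.74 ± 0.71 (95% confidence interval -0.80 to 2.28) in crf6, where the difference was 0.02 without mock replicate 2 of crf6. GSTF2 and GSTF3 in crf6 differed from WT by 0.22 ± 0.24 (95% confidence interval -0.29 to 0.74) and 0.35 ± 0.47 (95% confidence interval -0.66 to 1.35). These sizes moved by more than 1.5 times when 1 library was left out. In snrk1a GSTF6 ran from 0.24 without mock replicate 1 of WT to 0.80 without mock replicate 1 of snrk1a, and GSTF7 from 0.31 to 0.93 without the same libraries. GSTF14 in snrk1a ran from 0.0029 without treated replicate 3 of snrk1a to 0.71 without treated replicate 2. In crf6 the range was 0.02 to 1.14 for GSTF14, 0.08 to 0.31 for GSTF2 and 0.08 to 0.65 for GSTF3. The lowest adjusted p of a member was 0.145 in SnRK1aOX, 0.222 in jmj15, 0.759 in snrk1a and 0.996 in crf6. The 4 comparisons share the WT libraries.

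**Figure D5:**
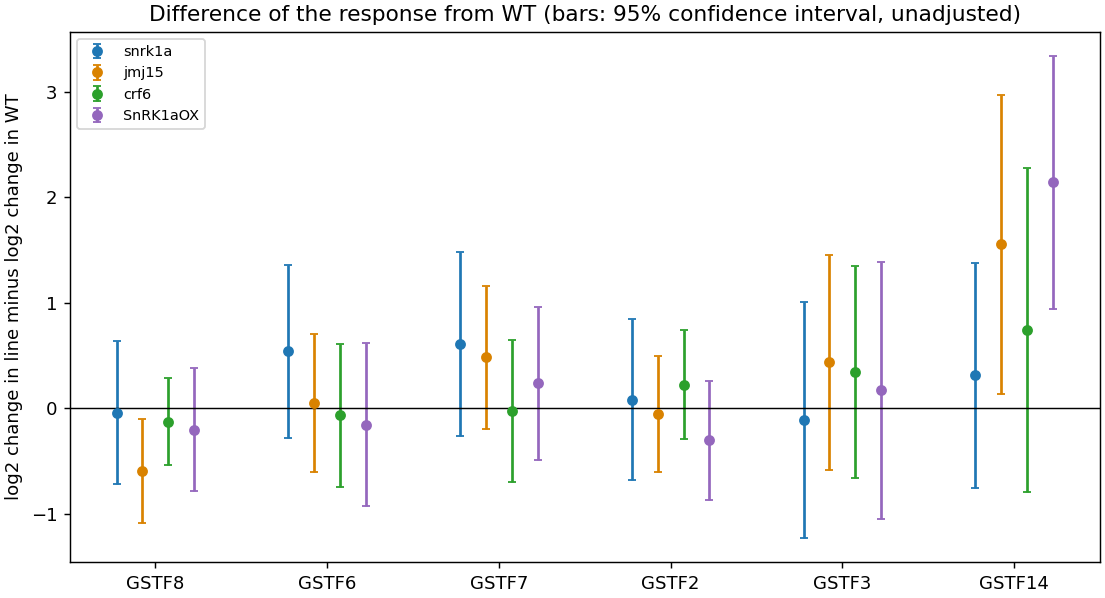
Log2 change in each line minus log2 change in WT for the 6 listed members, with unadjusted 95% confidence intervals from limma (n = 3 libraries a group). The intervals of GSTF14 in jmj15 (0.14 to 2.97) and SnRK1aOX (0.94 to 3.34) and of GSTF8 in jmj15 (-1.09 to -0.10) leave out 0.

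The calls in SnRK1aOX rested on the full set of libraries more than those of the other lines. In the limma refit 6 members passed there with all libraries, 2 without treated replicate 2, 3 without treated replicate 3 or without mock replicate 3, and 4 without treated replicate 1. GSTF8 and GSTF7 passed in each of these refits. GSTF3 had an adjusted p of 0.0308 with all libraries and up to 0.152, and GSTF6 had 0.0194 and up to 0.0815. Leaving out a library of jmj15 or crf6 ended no member's call, and in WT and snrk1a at least 5 members passed in each such refit. Adjusted p is not directly comparable between lines, since it depends on how many genes are listed, 2187 in SnRK1aOX and 3481 in WT. By limma, GSTF6 in SnRK1aOX had an unadjusted p of 0.000854 and an adjusted p of 0.0194. GSTF7 in WT had 0.000868 and 0.0107. The part of this in the lost calls was not tested.

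Per kilobase of the longest annotated transcript, GSTF6, GSTF7 and GSTF8 were among the most abundant listed genes. In treated WT GSTF8 reached 20412 ± 889.9 (SD, n = 3), GSTF7 20172 ± 343 and GSTF6 17979 ± 1337 normalised counts per kilobase, at ranks 24, 26 and 33 of 3444 genes with a length. GSTF8 and GSTF7 did not differ beyond their spread. GSTF2 followed at 1162 ± 157 and GSTF3 at 658 ± 192, and GSTF14 was last at 179 ± 13.9 counts per kilobase. In mock WT the order was GSTF7 at 9178 ± 3653, GSTF6 at 7292 ± 2780.0, GSTF8 at 4769 ± 846, GSTF14 at 4122 ± 1620.0, GSTF2 at 420.0 ± 76.4 and GSTF3 at 189 ± 62.8 counts per kilobase. The levels of GSTF7 and GSTF6, and those of GSTF8 and GSTF14, lay within each other's spread in mock WT. GSTF14 therefore went from the middle of the members to the bottom, and the mean of GSTF8 from below that of GSTF6 to above it. The order of GSTF8 and GSTF6 depends on the lengths used, 1748 bases for GSTF8 and 1186 for GSTF6. Without lengths, the GSTF8 count was 0.798 to 1.26 times the GSTF6 count in the mock WT libraries.

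In the other tables the same 3 genes stayed on top. With antimycin A, GSTF6 and GSTF7 ranked 7 and 8 of 2987 genes in jmj15, at 29313 ± 1264 and 29096 ± 1103 counts per kilobase. They ranked 29 and 22 of 4076 in snrk1a, 25 and 18 of 3455 in crf6 and 15 and 12 of 2165 in SnRK1aOX. GSTF8 ranked 22 in jmj15, 58 in snrk1a, 31 in crf6 and 29 in SnRK1aOX. Within a library, the GSTF8 count over the GSTF6 count was 1.57 to 1.77 in treated WT and 0.798 to 1.26 in mock WT, and 0.92 to 1.09 in treated and 0.872 to 0.992 in mock jmj15. Treated ratios lay above all mock ratios in WT and crf6 and overlapped in snrk1a, jmj15 and SnRK1aOX.

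The genes whose 5 log2 changes were most like those of a member were taken from the 1125 listed in all tables, by the root mean square difference over the 5 lines. For GSTF8 they were AT3G18250 at 0.12, MES16 (AT4G16690) at 0.135 and HSP70T-2 (AT2G32120) at 0.153, where HSP70T-2 is an HSP70-type chaperone. For GSTF6 they were SRO5 (AT5G62520) at 0.091, ALAAT2 (AT1G72330) at 0.116 and AT1G65500 at 0.117, of which SRO5 is known from salt and oxidative stress and ALAAT2 is an alanine aminotransferase. For GSTF7 they were AT2G30550 at 0.065, AT4G22980 at 0.08 and NDA2 (AT2G29990) at 0.121, the last an alternative NADH dehydrogenase of mitochondria. For GSTF2 they were AT5G13370 at 0.078, ATAF1 (AT1G01720) at 0.103 and NAPRT2 (AT2G23420) at 0.116, where ATAF1 is a stress-responsive NAC transcription factor. For GSTF3 they were IAA30 (AT3G62100) at 0.046, AT4G19880 at 0.124 and AT5G38200 at 0.141, where IAA30 belongs to the Aux/IAA family. GSTF14 had no gene as close, its nearest being AT1G34040 at 0.428, XTH31 (AT3G44990) at 0.451 and CYP735A2 (AT1G67110) at 0.456, a xyloglucan-modifying enzyme and a cytokinin hydroxylase among them. The likeness between GSTF6 and GSTF7 was 0.19 on the same scale. These distances take no account of the SE of the changes. That SE was 0.26 to 0.58 in a line for GSTF14 and 0.30 to 0.41 for GSTF3. GSTF14 also had larger changes, so its wider distances are not read as a trait of the gene. The order of likeness was not tested.

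GSTF9, GSTF10, GSTF11 and GSTF12 are listed in no table. GSTF10 is also known as ERD13, an early dehydration gene, GSTF11 belongs to glucosinolate synthesis and GSTF12 to anthocyanin transport. Of 11 other genes of aliphatic glucosinolate synthesis, 6 were listed as lower in WT, 7 in snrk1a, 6 in crf6, 3 in jmj15 and 5 in SnRK1aOX, and 0 as higher. The share of all implied tested genes called lower was 8.84% in WT, 10.1% in snrk1a, 7.71% in crf6, 6.04% in jmj15 and 3.67% in SnRK1aOX. In WT CYP79F2 fell by 2.28 ± 0.23, BCAT4 by 2.00 ± 0.31, CYP83A1 by 1.97 ± 0.16 and SOT18 by 1.44 ± 0.21 on the log2 scale, with adjusted p of 0.000327, 0.00218, 0.000192 and 0.00176 (limma). These encode steps from methionine chain elongation to the final sulfation of the glucosinolate. Of 9 anthocyanin genes, CHS, chalcone synthase, was lower in all 5 tables, with a log2 change of -1.77 ± 0.40 in WT (adjusted p = 0.0194, limma). Genes listed as lower numbered 1 in WT, 2 in snrk1a and jmj15, and 3 in crf6 and SnRK1aOX. Listed as higher was 1, DFR in crf6, at 3.22 ± 0.91 with an adjusted p of 0.065 (limma). DFR counts in crf6 were low, with means of 32.5 ± 25.1 (SD, n = 3) in treated and 3.11 ± 3.99 in mock libraries. Of the lower genes UF3GT in crf6 and PAP1 in SnRK1aOX also missed the threshold in the limma refit, with an adjusted p of 0.164 and 0.115. Their mean counts were low as well, at 4.24 treated and 14.5 mock for UF3GT and 11.1 and 31.9 for PAP1.

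Of 5 genes of the camalexin pathway, in which GSTF6 acts, 2 were listed as higher in WT, snrk1a, crf6 and SnRK1aOX and 3 in jmj15, with 0 lower. In the limma refit 1 of them passed in WT and SnRK1aOX and 2 in the other lines. Between 5.55% (SnRK1aOX) and 7.17% (snrk1a) of all implied tested genes were called higher in a line. PAD3, which makes camalexin in the last step, had a log2 change of 1.41 ± 0.39 in WT (adjusted p = 0.0506, limma), 3.09 ± 0.28 in snrk1a (0.000201), 2.33 ± 0.15 in crf6 (0.000107), 3.50 ± 0.20 in jmj15 (5.23e-05) and 3.08 ± 0.33 in SnRK1aOX (0.00342). CYP71A12, a P450 upstream of it, rose in WT by 1.86 ± 0.50 (0.0455). The likeness of its sequence to that of CYP71A13 was not measured here, so how reads were split between the 2 is unknown.

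Genes that supply glutathione and handle its conjugates were listed as higher where they were listed. GSH2, glutathione synthetase, rose by 1.19 ± 0.15 in WT (adjusted p = 0.00096, limma), and GSH2 was also higher in snrk1a, jmj15 and crf6. GSH1, which makes the precursor, was higher in snrk1a and jmj15, and 0 of the 4 supply genes were listed in SnRK1aOX. ABCC2, a vacuolar pump of glutathione conjugates, rose by 1.07 ± 0.14 (0.000996) and GGP1, a peptidase that removes glutamate from conjugates, by 1.15 ± 0.24 (0.0127) in WT, and both were higher in all 5 tables. Of the 6 conjugate genes 4 were higher in snrk1a and crf6, 2 in WT and jmj15 and 3 in SnRK1aOX. Among 12 glutathione transferases outside the phi and tau classes, 3 were higher in snrk1a and SnRK1aOX, 2 in jmj15 and crf6 and 1 in WT, and 0 lower. Of all implied tested genes, 5.83% were called higher in WT, and between 5.55% (SnRK1aOX) and 7.17% (snrk1a) over the lines. A single listed gene in lists this short is therefore not read as a result. GSTL1 of the lambda class was listed in all 5, with 1.36 ± 0.41 in WT (adjusted p = 0.0731, limma) and 1.97 ± 0.20 in jmj15 (0.000415). GSTZ1 of the zeta class, an enzyme of tyrosine breakdown, was listed in every line but WT, with 1.25 ± 0.18 in snrk1a (0.00108).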

How the data were processed

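RNA-seq values of 30 libraries (3 for each of 5 lines and 2 treatments) came from 1 deposited table per line. Per the submitters' processing notes, reads were aligned with Bowtie 0.12.2 to TAIR10. How genes were counted, normalised and tested is not given in the sources used here. Per the file headers and the values, each table holds a normalised read count (a signal, scaled by the authors, possibly within that table). Each also holds the authors' log2 fold change, and p-values and q-values deposited by the authors. From the values, listed genes all have a q-value below 0.05 and a log2 fold change beyond 1 in size, and the deposited p-values and q-values imply 23728 to 23834 tested genes per line. Whole reads were not recovered, so depth per library and the counting error are unknown. Strand is not stated. Columns were matched to samples by name. Those named kin10-2 and KIN10V17 were taken for snrk1a and SnRK1aOX since SnRK1a is also called KIN10, and the remaining tables belong to the other lines.

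The members, the lists and the tests were chosen with earlier results of these data known. The planned test of raw counts was replaced by the planned one for tables of selected genes: limma 3.58.1 (R 4.3.3) on log2(value + 1), with trended empirical Bayes, 2-sided, and Benjamini-Hochberg adjustment over the implied number of tested genes. Unlisted genes enter the adjustment only by their number, so a similar p tends to give a larger adjusted p where fewer genes are listed. Adding 1 understates changes of low genes. Differences from WT are differences of within-table changes, adjusted over the genes listed in both tables. The scripts were tested on simulated data. Members were named in every table that lists them, list genes if among the 4 with the largest absolute change in WT, and like genes as the 3 nearest. DFR, UF3GT, PAP1, GSH1, GSTZ1, CYP71A13, CASP5 and LHCB2.1 fall outside this rule and were named after their values were seen. Sequences and models came from the RefSeq annotation of TAIR10.1 (Python 3.11.15, Biopython 1.88), by gene identifier, which matched all 10 members. One root marker and the sequence window of 1 member are not reported here. The alternatives were pseudocounts of 0.5 and 5, a minimum mean of 10, no trend, robust moderation, rescaled libraries, summed copies, a joint fit, a replicate block and leaving out each library.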

Additional observations from a re-analysis of the deposited data

How the results depend on the processing

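Under the alternatives, the values of the members within a line stayed on the same side of the threshold 419 times, lost the call 21 times and never changed direction (0 of these). Leaving out 1 library gave 5 to 6 members passing in WT and in snrk1a, 6 in jmj15 and crf6, and 2 to 6 in SnRK1aOX. The numbers there were 2 without treated replicate 2 and 3 without treated replicate 3 or mock replicate 3, refits that hold fewer samples. For the differences from WT, 0 members passed, except for 1 in jmj15 without treated replicate 3 (GSTF14, 2.14). Differences near 0 changed sign in 35 refits, none of which passed. Leaving out 1 library, they ran in snrk1a from -0.19 to 0.29 for GSTF2, -0.57 to 0.21 for GSTF3 and -0.26 to 0.15 for GSTF8. They ran in jmj15 from -0.20 to 0.059 for GSTF2 and -0.25 to 0.23 for GSTF6, and in crf6 from -0.36 to 0.11 for GSTF6 and -0.33 to 0.19 for GSTF7. In SnRK1aOX they ran from -0.24 to 0.46 for GSTF3, -0.45 to 0.024 for GSTF6 and -0.066 to 0.46 for GSTF7. With copies summed, the difference was 0.11 for GSTF2 with GSTF3 in jmj15 and 0.049 for GSTF6 with GSTF7 in SnRK1aOX. The cause of these moves was not tested.

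Replicate numbers shared by mock and treated libraries gave 15 pairs, whose deviations correlated from -0.358 to 0.107, and 3 correlated best with their own number. A shared origin of such pairs was therefore not seen. It is not excluded, since the labels do not say how the replicates were made. With the replicate block 6 members passed in WT, snrk1a, jmj15 and crf6 and 5 in SnRK1aOX, where GSTF3 had an adjusted p of 0.109, and 0 passed for a difference from WT. Unknown depth, tables that hold only called genes and close copies limit what these values can show.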
